A study of Mus musculus with 6 samples.

Results

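The transcripts of 9 genes of the DNA damage checkpoint and of recombination repair were followed in mouse oocytes of the germinal vesicle (GV) stage, when the nucleus is still intact and meiosis has not resumed. The genes are Atm, Atr, Chek1, Chek2, Trp53, Trp63, Mdm2, Brca1 and Brca2, taken by name, and all 9 were found among the 25239 genes of the count table. They span the kinases that sense breaks, the kinases that carry the signal, the transcription factors and their inhibitor, and 2 repair proteins.

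Oocytes came from antral follicles of female CD-1 mice, an outbred strain, of 4 to 6 weeks of age. Within their cumulus-oocyte complexes they were injected with water (3 libraries) or with a mixture of phthalate metabolites (3 libraries), and both groups were then cultured in maturation medium with serum and follicle-stimulating hormone. The members and dose of the mixture are not given in the labels, and no group was left uninjected. Smart-seq3, which primes reverse transcription on poly(A) tails and amplifies the cDNA by PCR, was used for the single-cell libraries. The titles number the libraries of a group from 1 to 3 without naming an animal or culture, and the extraction protocol can be read as 1 oocyte for each group. It is therefore not known if a group holds 3 oocytes or repeats of 1, and the spread between its libraries may be technical. Each group counts here as 1 sample, the values of its libraries are shown, and no difference has a replicate check or a test.

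In a cell with broken DNA, ATM and ATR are the kinases at the head of the checkpoint. ATM acts mainly through CHK2, the product of Chek2, and ATR through CHK1, the product of Chek1. In oocytes these kinases act on p63, the product of Trp63, which guards the resting follicle pool, and on the CDC25 phosphatases that release the GV arrest. MDM2 marks p53 for destruction, while BRCA1 and BRCA2 act in the repair of broken ends by recombination. A growing oocyte stores messenger RNA for later use, so a transcript at this stage need not be one in translation.

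Libraries held from 252267 to 300917 gene counts. Of 20 oocyte markers, 19 had counts, and together they took from 43631 to 49662 counts per 1000000 gene counts of a library (CPM). Of 22 cumulus and granulosa markers, 13 were at 0 in every library, among them Amh, Foxl2 and Ptgs2. The sum of these markers ranged from 0 to 26.0 CPM in the water libraries and from 7.27 to 37.3 CPM in the phthalate libraries. Among 14 markers of other ovarian cells, 11 were at 0, and nearly all counts of the rest belonged to Pecam1.

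The promoters of 3 genes are shown because Trp53 and Mdm2 form the loop described below and Brca1 was the best-counted gene with a group ratio past 1.5-fold. Sites of p53 were not searched for, so the sequences do not bear on that loop. RefSeq windows (GRCm38.p6) were found for 8 of the 9 genes, Trp63 being the exception. Each line gives the 250 bases before the start of transcription, 5′ to 3′, with the CCAAT box in capitals as CCAAT or, on the other strand, ATTGG.

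Trp53, chr11:69580109-69580358, plus strand: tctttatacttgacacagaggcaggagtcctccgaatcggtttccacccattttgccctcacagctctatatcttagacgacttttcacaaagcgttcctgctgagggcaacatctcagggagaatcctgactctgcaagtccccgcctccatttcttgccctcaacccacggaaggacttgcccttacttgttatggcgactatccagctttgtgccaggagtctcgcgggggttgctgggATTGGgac

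Mdm2, chr10:117710759-117711008, minus strand: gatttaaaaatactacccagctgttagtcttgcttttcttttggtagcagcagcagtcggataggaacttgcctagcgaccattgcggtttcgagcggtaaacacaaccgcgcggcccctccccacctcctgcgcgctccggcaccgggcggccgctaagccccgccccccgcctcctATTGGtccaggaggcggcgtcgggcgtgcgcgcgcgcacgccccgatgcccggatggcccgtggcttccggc

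Brca1, chr11:101551956-101552205, minus strand: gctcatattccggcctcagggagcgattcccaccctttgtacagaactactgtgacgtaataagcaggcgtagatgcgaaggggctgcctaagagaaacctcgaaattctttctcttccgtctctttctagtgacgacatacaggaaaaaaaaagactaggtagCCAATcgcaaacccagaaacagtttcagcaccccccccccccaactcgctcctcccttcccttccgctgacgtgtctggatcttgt

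The 5 letters CCAAT, on either strand, occurred in the windows of Atm, Chek2, Trp53, Mdm2 and Brca1, and in 33.8% of 32851 RefSeq windows of that length. The E2F-type letters TTTCCCGC, on either strand, occurred before Chek2 and Brca2, 2 of the 8 windows, and in 0.895% of all windows. TTTGGCGC was in 0 of the 8 and in 0.417% of all. The 2 genes with TTTCCCGC stood far apart in level, Brca2 at rank 3 and Chek2 at rank 8 of the 9 genes per transcript length. A match of letters is a description of the sequence and was not set against any binding data.

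Chek1 was the most abundant of the 9 transcripts. Its level per transcript length was 69.4 CPM per kb (mean over 6 libraries, SD 13.1), above 90.4% of the 11858 genes with a count and an annotated length. Mdm2 followed with 24.0 (SD 9.54), Brca2 with 18.9 (SD 5.61), Trp53 with 10.5 (SD 8.0) and Brca1 with 9.88 CPM per kb (SD 4.65). Trp63 had 4.4 CPM per kb (SD 2.63) and Atr 2.62 (SD 1.09). The lowest values were those of Chek2, at 1.56 (SD 2.65), and of Atm, at 0.915 CPM per kb (SD 0.655), which was above 18.5% of the genes.

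The lowest library of Chek1, 55.7 CPM per kb, was above the highest library of any other of the 9 genes, 42.0 for Mdm2. The ranges of the 7 further pairs of neighbours in the order overlapped, so their order is not settled by these libraries. Of all 36 pairs of the genes, 20 had ranges that did not overlap. With the median length of the annotated protein-coding transcripts in place of the longest, Brca1 was first and Chek1 second, because short annotated fragments bring the median for Brca1 to 531 bases against a longest transcript of 6572.

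**Figure D1:**
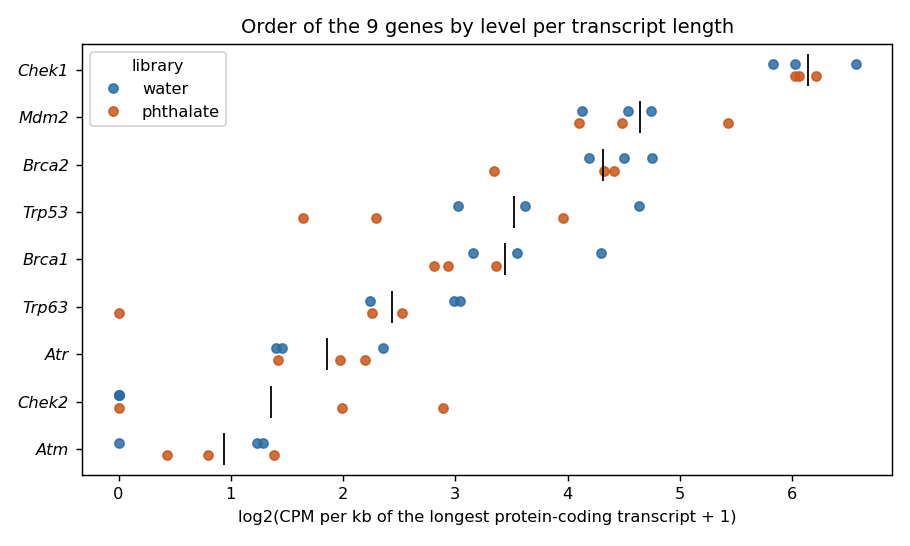
Level of each gene in each library as log2(CPM per kb of the longest protein-coding transcript + 1), with water libraries in blue, phthalate libraries in orange and a black bar at the mean of all 6. Chek1 stands apart at the top, with its lowest library at 55.7 CPM per kb, and the libraries of neighbouring genes overlap below it.

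Of the 4 checkpoint kinase genes, Chek1 alone was well counted, and its sums were close in the groups. Chek1 (chr9:36708482-36727065 on GRCm38) had 57, 107 and 69 counts after water and 63, 82 and 67 after phthalate, values being given in the order of libraries 1, 2 and 3 here and below. In CPM these were 212, 356 and 243 against 250, 278 and 244. Water library 2 was the highest of all 6, and the 3 phthalate libraries lay close together inside the water range. The mean was 270 CPM in water (SD 75.7, n = 3 libraries) and 257 CPM in phthalate (SD 18.3, n = 3 libraries).

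The log2 ratio of phthalate over water for Chek1 was -0.06, with a 95% interval from -0.34 to 0.21 that covers counting error only. All ratios here compare the counts summed over a group, scaled by its total. PCR reads not collapsed by molecular identifiers are not independent molecules, and the handling of such identifiers is not given. Leaving out water library 2 moved the value for Chek1 to 0.21. Its interval leaves out a change of 1.5-fold in either direction as far as counting error goes.

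Atr (chr9:95857597-95951781), the kinase that activates CHK1 at stalled forks and resected ends, had 9, 4 and 4 counts after water and 6, 4 and 8 after phthalate. Its sums were 17 and 18, and the log2 ratio was 0.15 (-0.89 to 1.2). The ranges of the groups overlapped, and the ratio passed 1.5-fold only without water library 1, at 0.68. It was below 0 without water library 2 (-0.07), water library 3 (-0.04) or phthalate library 3 (-0.15). Transcripts annotated on the opposite strand, 1700065D16Rik with 0 counts and Gm16794, share exon bases with Atr, and the counting is not stated to use strand.

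The ATM branch was near the limit of detection. Atm (chr9:53439149-53536740), the kinase of double-strand breaks, had 0, 4 and 4 counts after water and 4, 1 and 2 after phthalate. The water sum was 8 and the phthalate sum 7, for a log2 ratio of -0.12 (-1.82 to 1.54). The ratio changed sign with the library left out, being -0.80 with phthalate library 1 left out and 0.32 with phthalate library 2 left out. A change of the size seen in any other of the genes was not detectable at this depth.

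Chek2 (chr5:110839979-110874145), the effector kinase of the ATM branch, had 0 counts in all 3 water libraries. In phthalate libraries 1, 2 and 3 it had 0, 2 and 4 counts. The water group, with 0 counts, allows a level of up to 3.51 CPM for independent counts, and a higher one if both mates were counted. The phthalate group had 7.30 CPM. The phthalate group was 2.10-fold above that floor of 3 counts over the group, a value that does not allow for counting error in its own 6 counts. Counted as read pairs, since both mates appear to have been counted, the values are 0 against 3 pairs and no fold is given. The interval for the fold then starts at 0.434, below equality, against 1.24 on the counts. With water library 1, 2 or 3 left out the log2 ratio to the floor was 0.51, 0.46 or 0.49, no longer past 1.5-fold, and with phthalate library 3 left out no value is given.

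**Figure D2:**
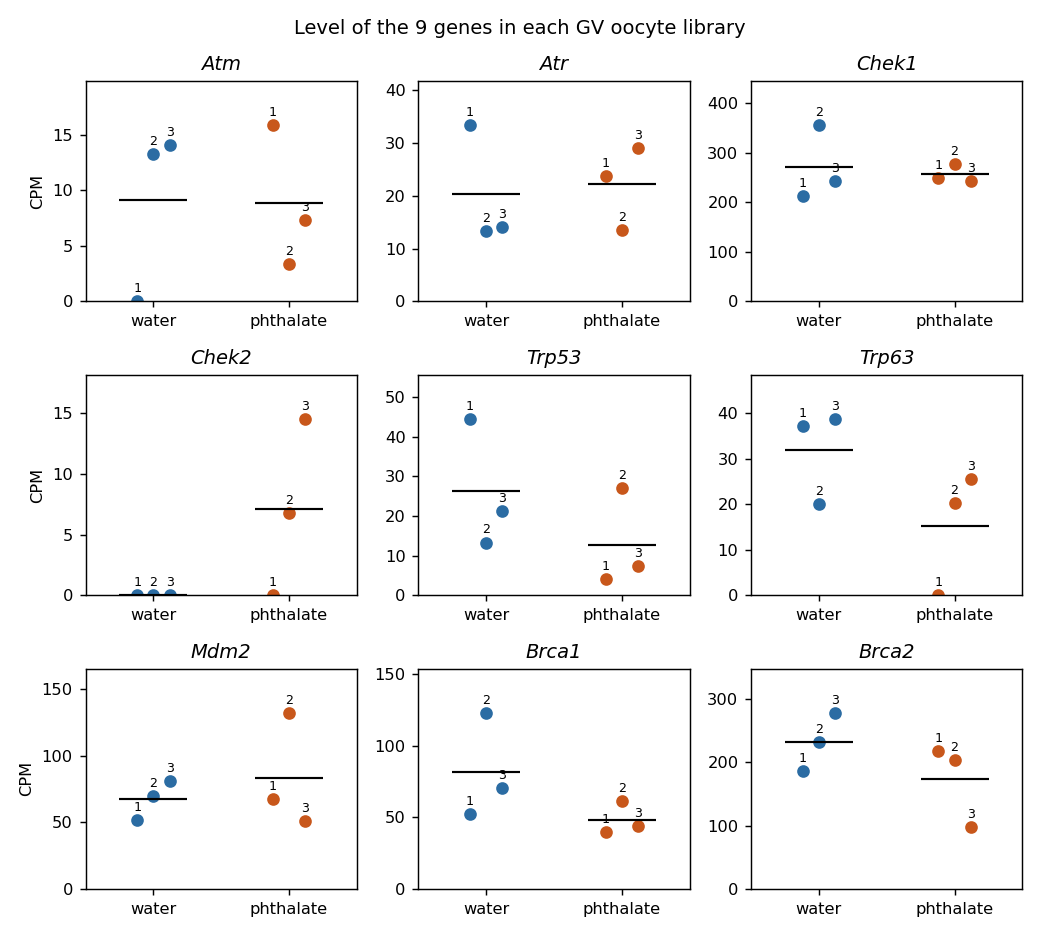
Level of each gene in CPM, on an axis from 0 in each panel, for the water (blue) and phthalate (orange) libraries, numbered as in the titles, with a black line at the group mean. The groups overlap in each of the 9 panels. The Chek2 panel has its counts in phthalate libraries 2 and 3 alone.

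Transcripts of p53 and p63 had lower sums in the phthalate group, on few counts. Trp63 (chr16:25683763-25892102), which encodes the p63 proteins, had 10, 6 and 11 counts after water and 0, 6 and 7 after phthalate. In CPM these were 37.1, 19.9 and 38.8 against 0, 20.3 and 25.5. Phthalate libraries 2 and 3 lay above the lowest water library, and phthalate library 1 alone had none.

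The log2 ratio for Trp63 was -0.98 (-2.06 to 0.02), a 1.98-fold lower sum. Without phthalate library 1 it was -0.44, no longer past 1.5-fold. The table counts genes, so the full-length TA form known from oocytes and the shorter forms of other tissues are summed in this value.

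Trp53 (chr11:69580359-69591873), which encodes p53, had 12, 4 and 6 counts after water and 1, 8 and 2 after phthalate. In CPM these were 44.5, 13.3 and 21.1 against 3.96, 27.1 and 7.27. Water library 1 was the highest and phthalate library 1 the lowest, but phthalate library 2 lay above water libraries 2 and 3.

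The log2 ratio for Trp53 was -0.93 (-2.12 to 0.18). It became -0.35 on leaving out water library 1, -0.52 on leaving out phthalate library 1, and -2.14 on leaving out phthalate library 2, so each of these libraries decided its size. A processed copy, Trp53-ps on chromosome 17, has no row in the table, and how reads that match both were treated is not given in the sources used here.

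Mdm2 (chr10:117688875-117710758) encodes the ubiquitin ligase that holds p53 low and is itself a target of p53. It had 14, 21 and 23 counts after water and 17, 39 and 14 after phthalate. In CPM these were 51.9, 69.8 and 81.0 against 67.4, 132 and 50.9. Phthalate library 2 was the highest of all and phthalate library 3 the lowest.

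The mean of Mdm2 was 67.6 CPM in water (SD 14.7, n = 3 libraries) and 83.5 CPM in phthalate (SD 43.0, n = 3 libraries), so the difference was smaller than the spread between the phthalate libraries. The log2 ratio was 0.34 (-0.18 to 0.87), and it was -0.17 without phthalate library 2. That library also had the most Trp53 counts of its group, 8 of 11. In the water group it was otherwise: library 1 had the most Trp53 counts, 12, and the fewest Mdm2 counts, 14.

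The 2 recombination genes both had lower sums in the phthalate group. Brca1 (chr11:101488764-101551955), whose product works in end resection and in bringing BRCA2 to breaks, had 14, 37 and 20 counts after water and 10, 18 and 12 after phthalate. In CPM these were 51.9, 123 and 70.5 against 39.6, 61.0 and 43.6. Water library 2 stood above the rest, and phthalate library 2 lay above water library 1.

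The mean of Brca1 was 81.8 CPM in water (SD 36.8, n = 3 libraries) and 48.1 CPM in phthalate (SD 11.4, n = 3 libraries). The log2 ratio was -0.76 (-1.35 to -0.18), a 1.69-fold lower sum. On read pairs the interval ran from -1.62 to 0.07. Without water library 2 the ratio was -0.31, no longer past 1.5-fold.

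Brca2 (chr5:150522630-150570329), whose product acts in strand exchange during recombination, had 50, 70 and 79 counts after water and 55, 60 and 27 after phthalate. In CPM these were 186, 233 and 278 against 218, 203 and 98.2. Phthalate library 3 was the lowest of the 6, and the other phthalate libraries lay inside the water range.

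The mean of Brca2 was 232 CPM in water (SD 46.4, n = 3 libraries) and 173 CPM in phthalate (SD 65.4, n = 3 libraries). The log2 ratio was -0.41 (-0.74 to -0.10). On read pairs the interval ran from -0.87 to 0.04, and without phthalate library 3 the ratio was -0.18.

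Of the 9 genes, 4 passed the filter on low counts, namely Chek1, Mdm2, Brca1 and Brca2. The other 5 are given on the same scale with no filter. Because the spread of ratios depends on abundance, each gene was read against all genes in its band of mean count. A ratio past 1.5-fold in either direction was counted as called, a label of size and not a test.

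In the band of 30 to under 100 counts, 5.12% of 1445 genes were called, and neither Chek1 nor Brca2 was. The ratio of Brca2 was nevertheless low for its band, where 6.30% of the genes had a lower one. From 10 to under 30, 22.1% of 2618 genes were called, and of Brca1 and Mdm2 only Brca1 was. In that band 6.11% of genes had a lower ratio than Brca1.

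From 5 to under 10, 38.6% of 1795 genes were called, and so were Trp53 and Trp63 but not Atr. Lower ratios than theirs were found for 10.0% and 9.58% of that band. From 1 to under 5, 63.3% of 3613 genes were called, as was Chek2 at its floor but not Atm. Over all 4644 genes that passed the filter the called share was 15.1%.

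No gene of the 9 had water and phthalate libraries whose CPM ranges were apart. Ranges were apart for 10.0% of the 4644 filtered genes. By band the shares were 8.58% (mean count 1 to under 5), 10.6% (5 to under 10), 10.6% (10 to under 30) and 9.20% (30 to under 100).

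Ratios were below 0 for 6 of the 9 genes and above 0 for 3, with a median log2 ratio of -0.12 that has Chek2 at its floor. Over the 4644 filtered genes the median was 0.01, with 48.8% below 0. The sum of the 9 genes was 616, 841 and 761 CPM after water and 618, 746 and 520 CPM after phthalate. These sums overlapped, and Chek1 and Brca2 made up 68.1% of the 1154 counts behind them.

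**Figure D3:**
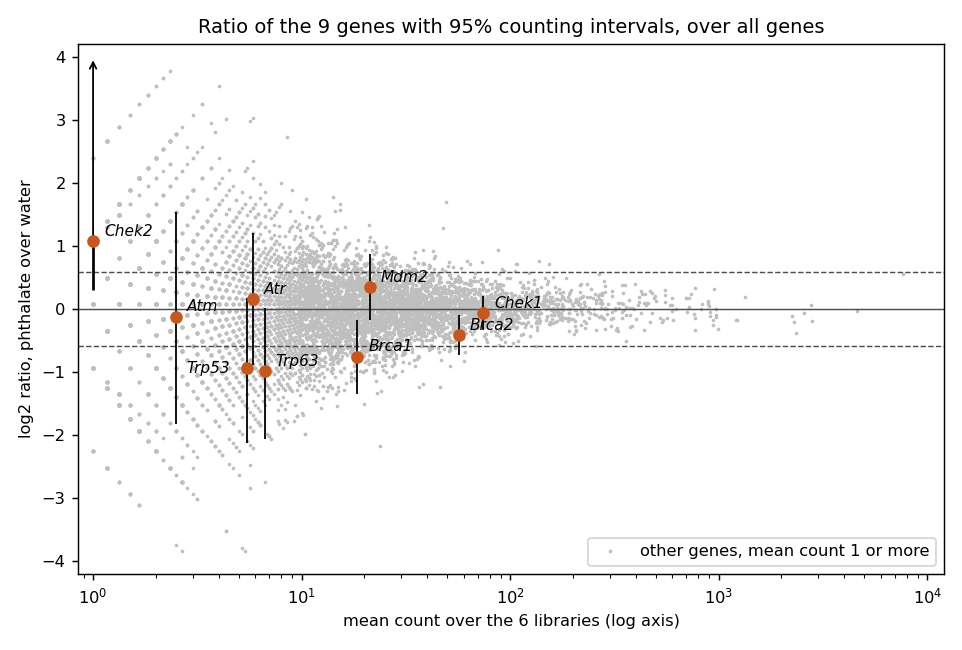
Log2 ratio of phthalate over water against the mean count per library (log axis) for the 9 genes (orange, with 95% counting intervals as vertical lines) and for all other genes averaging 1 count or more (grey). Dashed lines mark 1.5-fold. The arrow on Chek2 marks an interval without an upper end, and the grey cloud widens around the genes with few counts.

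The spread between libraries of a group was within the usual range of other genes at the same level. The chi-square per degree of freedom within groups, which is near 1 for independent counts and near 2 where both mates are counted, was 4.06 for Brca2, 3.56 for Chek1 and 3.21 for Mdm2. The median was 2.33 for genes in the band of Brca2 and Chek1 and 1.99 in that of Mdm2. Brca1 had 2.89, Trp53 2.88 and Trp63 2.09, and these 6 genes were above the median of their bands, at percentiles from 56.3 for Trp63 to 79.1 for Brca2. Atm with 1.56, Atr with 1.33 and Chek2 with 1.07 were below theirs.

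The profile over libraries was set beside other genes for Chek1 alone, the best counted of the 9. Of 2783 genes averaging 20 counts or more, Mdm4, which encodes the partner of MDM2 in restraining p53, had the highest Pearson correlation with it, 0.99 over the 6 libraries on log2(CPM + 1). Ndufa4 and Cnih1 followed, both at 0.95. Mdm4 had 1347, 2293 and 1582 CPM after water and 1594, 1729 and 1640 after phthalate. As with Chek1, water library 2 was highest and water library 1 lowest. The points share their library totals, and the highest of so many correlations over 6 points is large by its choice.

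The other genes of the pathway, in 6 lists of 130 genes, had 57 members that passed the filter. Of these 32 were higher and 25 lower in the phthalate group, with a median log2 ratio of 0.04. The called share was 12.3%, against the 15.1% of all filtered genes, and ranges were apart for 10.5%, against 10.0%. The 7 called genes are named below, some of them chosen after their values were seen. All intervals of list genes are on counts, not on read pairs, and are too narrow if both mates were counted.

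Among damage sensors and checkpoint partners, 15 of 26 genes passed, 7 higher and 8 lower, with a median log2 ratio of -0.12. Rad50, which encodes a subunit of the complex that recruits ATM to breaks, had 174, 203 and 338 CPM after water and 127, 153 and 98.2 after phthalate. The 3 phthalate libraries were all below the 3 water libraries, with a log2 ratio of -0.90 (-1.25 to -0.55). Its partners Mre11a and Nbn did not pass the filter, with sums of 22 and 29 counts and of 16 and 13 counts in water and phthalate.

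Topbp1, whose product activates ATR, had 37.1, 86.4 and 98.7 CPM after water and 47.6, 33.9 and 36.4 after phthalate. Its log2 ratio was -0.93 (-1.59 to -0.29), and the groups overlapped at water library 1. Etaa1, the other activator of ATR, had a ratio of -0.51 (-1.0 to -0.03). Clspn, the adaptor through which ATR reaches CHK1, had a ratio of 0.48 (0.08 to 0.87), and Rnf8, a ubiquitin ligase at breaks, one of 0.26 (-0.24 to 0.77).

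Among regulators of the p53 family, 10 of 16 genes passed, 5 higher and 5 lower, with a median of -0.03. Csnk1a1, which encodes casein kinase 1 alpha, had 77.9, 136 and 123 CPM after water and 202, 190 and 196 after phthalate. All 3 phthalate libraries were above the water libraries, with a log2 ratio of 0.80 (0.43 to 1.18). Ep300, which encodes an acetyltransferase of p53, had 55.7, 59.8 and 95.1 CPM against 43.6, 30.5 and 47.3, a ratio of -0.79 (-1.45 to -0.15) with ranges apart.

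Rchy1, which encodes another ubiquitin ligase of p53, had a ratio of -0.32 (-0.65 to 0.01), also with ranges apart. Hipk2, a kinase of p53, had a ratio of -0.14 (-0.56 to 0.28). Csnk1e, which encodes casein kinase 1 epsilon, had a ratio of 0.05 (-0.13 to 0.22).

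Of 20 targets of p53 and p63, 13 had a count and 4 passed the filter, 2 higher and 2 lower, with a median of 0.02. Bbc3 and Pmaip1, the genes of the death proteins PUMA and NOXA, had 0 counts in all 6 libraries, and Cdkn1a, which encodes the cell cycle inhibitor p21, had 2 counts in phthalate library 2 alone. These 3 were named after their values were seen, as was Bax, another gene of the list. Bax passed the filter with 55 counts in each group and a ratio of 0.07 (-0.49 to 0.64). A count of 0 over a group allows up to 3.51 CPM in water and 3.65 CPM in phthalate for independent counts. The limit is higher if both mates were counted. Rrm2b, a ribonucleotide reductase subunit, had a ratio of 0.37 (0.03 to 0.72), and Ddit4, an inhibitor of mTOR signalling, one of -0.03 (-0.49 to 0.42).

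Homologous recombination had 19 of 40 genes past the filter, 11 higher and 8 lower, with a median of 0.09. The called genes were Xrcc3, which acts in recombination repair, at 1.07 (0.34 to 1.84), and Palb2, which links BRCA1 to BRCA2, at 0.86 (0.07 to 1.69). Palb2 had 2, 14 and 6 counts after water and 15, 11 and 12 after phthalate, so the groups overlapped at water library 2. The same held for Xrcc3, with 7, 15 and 2 counts after water and 21, 17 and 10 after phthalate. Bard1, which pairs with BRCA1, had sums of 26 and 32 counts.

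Mus81, a nuclease of joint molecules, had a ratio of 0.32 (0.03 to 0.61). Swi5 and Sfr1, whose products form a complex in recombination, had ratios of 0.25 (-0.19 to 0.70) and -0.13 (-0.28 to 0.01).

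Of 14 Fanconi anaemia genes only Ube2t, the ubiquitin-conjugating enzyme of the pathway, passed the filter, at -0.10 (-0.43 to 0.23). In end joining, 8 of 14 genes passed, 7 higher and 1 lower, with a median of 0.18. Lig4, the ligase of this route, had 5, 7 and 10 counts after water and 19, 16 and 17 after phthalate, with ranges apart and a ratio of 1.31 (0.57 to 2.10). Xrcc5 and Xrcc6, which encode the Ku proteins that bind broken ends, had ratios of 0.12 (-0.30 to 0.53) and 0.34 (-0.20 to 0.88), and Rif1 had 0.25 (-0.09 to 0.59).

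**Figure D4:**
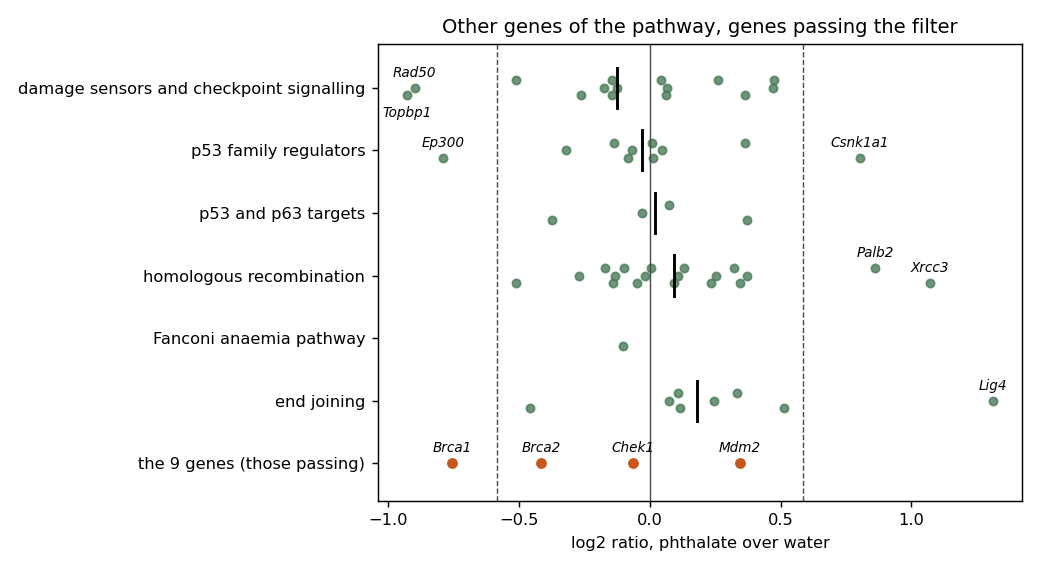
Log2 ratio of phthalate over water for the genes of the 6 pathway lists that passed the filter (green), with a black bar at the median of lists of at least 3 such genes, and for the 4 of the 9 genes that passed (orange). Dashed lines mark 1.5-fold, and the genes past it are labelled.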

How the data were processed

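Messenger RNA of 6 single-oocyte libraries was measured by Smart-seq3. The deposited table holds raw integer counts of 25239 gene symbols and of 92 ERCC spike-ins, the latter kept out of totals. Per the submitters' processing notes, cutadapt, Trimmomatic, HISAT2, DESeq2 and the mm10 build were used. The counting tool, annotation, use of strand and handling of molecular identifiers are not given in the sources used here. Small counts were mostly even (68.0% to 71.1% of counts from 1 to 20), so both mates of a pair appear to be counted, and intervals on counts are too narrow.

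From the deposited counts, CPM per library and group sums were computed. Group totals were scaled by TMM factors (edgeR 4.0.16). Ratios have exact (Clopper-Pearson) 95% intervals for counting error only, and sums of 0 were raised to a floor of 3 counts. The filter was edgeR's filterByExpr (minimum count 10, minimum total 15). Lengths and positions are from GENCODE M21 (GRCm38), promoters from RefSeq. The ratio and interval were tested on simulated independent counts of genes that passed the filter. That test does not cover paired mates or genes under the filter. Named from each list were the 2 highest and 2 lowest ratios at a mean count of at least 20. A gene that this rule names is not reported here. For 6 listed genes the newer symbol of the table was used. The 9 genes and the lists were chosen with earlier results of these data known. Alternatives were other scalings, read pairs, a mean of CPM, totals without Rn45s, no filter, a 2-fold limit, other lengths and each library left out.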

Additional observations from a re-analysis of the deposited data

How the results depend on the processing

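Over 11 alternatives, 96 of 97 ratios of the 9 genes stayed inside their counting interval, the exception being Trp53 at -2.14 without phthalate library 2. Read pairs leave a ratio unchanged by construction, and the intervals of genes with few counts are wide. Leaving out 1 library changed the sign for Atm (-0.80 to 0.32), Atr (-0.15 to 0.68), Chek1 (-0.22 to 0.21) and Mdm2 (-0.17 to 0.56). Leaving out 1 library gave ratios from -2.14 to -0.35 for Trp53, from -1.56 to -0.44 for Trp63, from -1.0 to -0.31 for Brca1 and from 0.46 to 1.62 for Chek2, which was under 1.5-fold without any 1 of the water libraries, where its floor weighs more. Of 60 medians of the 5 lists with at least 3 filtered genes, 6 had the opposite sign to the reported one. The number of genes past 1.5-fold rose from 701 to 3970 with no gene filter, since genes with few counts then enter, and 129 genes were past 2-fold. Counts limit Atm, Atr, Chek2, Trp53 and Trp63 most, with means of 1 to 6.67 per library. Read pairs gave no value for Chek2, nor did its counts without phthalate library 3, where both groups were at or under the floor. No paired analysis was possible because the ratios come from no test, and no label says that libraries with the same number share an animal, day or batch.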
